A study of Mus musculus with 93 samples.

Results

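Nnt encodes nicotinamide nucleotide transhydrogenase, a protein of the inner mitochondrial membrane. It is 1 of the 53465 genes counted in the livers of 93 male mice, and its row was found by its identifier, ENSMUSG00000025453. The mice came from 7 inbred strains, which were 129S1/SvImJ, A/J, C57BL/6J, CAST/EiJ, DBA/2J, PWK/PhJ and WSB/EiJ, and the labels name no transgene or drug. Every mouse was kept at 30°C, which is thermoneutral for mice, from 6 weeks of age. From 7 weeks of age it was fed either a western-style diet (WD), with 40% of the energy from fat, or a matched control diet (CD), with 10%. The 14 groups of strain and diet held 5 to 8 mice each, and each mouse gave 1 library of total liver RNA.

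The transhydrogenase uses the proton gradient across the inner membrane to pass hydride from NADH to NADP, and so makes NADPH inside mitochondria. Mitochondrial NADPH feeds the glutathione and thioredoxin systems that remove peroxides, and isocitrate dehydrogenase 2 (Idh2) and glutamate dehydrogenase (Glud1) are other sources of it. C57BL/6J mice are known to carry a deletion of several internal exons of Nnt, and a protein of full length is not made in them. The mouse reference genome was itself read from C57BL/6J, and reads from the exons missing there have no place to map. The counts of every strain therefore covered the exons that the reference keeps, and the low or high level of Nnt given here is the level of that part of the transcript.

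In GRCm38, the build named in the submitters' processing notes, Nnt lies on the minus strand at chr13:119335448-119408997, a span of 73550 bp. The GENCODE annotation of this build lists 5 transcripts, of which 3 are coding. The longest coding one has 17 exons that add up to 3464 bp, with 2505 bp of coding sequence, or 835 codons. The same annotation holds a second gene model of the same name on the same strand, which has no row in the count table. No other annotated gene overlaps Nnt.

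Libraries held 40020424 to 49894856 reads on genes, with a median of 46618609, and 2706 to 11543 of them fell on Nnt. At this depth the counting error of Nnt was small against the spread between mice. The RNA integrity number (RIN) ran from 7 to 9.7. The share of reads that did not map depended on the strain and also differed between diets. It was between 1.66% and 3.87% in C57BL/6J, between 1.93% and 2.52% in A/J, and between 8.93% and 14.8% in CAST/EiJ. Its group means on CD and WD were 3.50% and 7.88% in PWK/PhJ, 4.52% and 7.42% in WSB/EiJ, and 10.8% and 13.3% in CAST/EiJ. They were 2.23% and 2.82% in C57BL/6J, and 4.55% and 5.57% in 129S1/SvImJ. The mean was lower on WD in DBA/2J, at 6.45% and 4.77%, and in A/J, at 2.25% and 2.11%. The part of this share in the strain and diet differences below was not tested. The 7 hepatocyte markers examined, Alb among them, were present in every group, with group means of their summed level from 76635 to 199869 CPM, that is, reads scaled to a common library size.

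Nnt was lowest in C57BL/6J, next lowest in CAST/EiJ and highest in A/J, on both diets. Levels below are CPM scaled by the trimmed mean of M values (TMM), and they are compared between mice for this gene. The scaling does not adjust for reads of a strain that did not map to the C57BL/6J genome. On CD, C57BL/6J mice had 58.0 to 80.9 CPM, with a median of 66.7 and a mean of 66.9 ± 8.17 (SD, n = 8). On WD they had 55.9 to 86.4 CPM, with a median of 76.0 and a mean of 74.3 ± 10.9 (SD, n = 8). Every C57BL/6J mouse was therefore below every mouse of DBA/2J, A/J, 129S1/SvImJ, WSB/EiJ and PWK/PhJ.

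CAST/EiJ came next, with 80.6 to 96.5 CPM on CD, a median of 93.6 and a mean of 92.1 ± 5.46 (SD, n = 7). On WD it had 78.5 to 98.4 CPM, with a median of 83.3 and a mean of 85.9 ± 7.57 (SD, n = 8). Its lowest mouse on CD lay just under the highest C57BL/6J mouse on CD, and the ranges of the strains overlapped more widely on WD. All CAST/EiJ mice were below all mice of the other 5 strains.

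A/J stood at the other end. The 5 A/J mice on CD had 169.9, 175.1, 181.3, 186.2 and 188.0 CPM, a mean of 180 ± 7.58 (SD, n = 5). On WD the range was 166 to 237 CPM, with a median of 212 and a mean of 208 ± 23.5 (SD, n = 6). No mouse of another strain, on either diet, reached the lowest A/J mouse.

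The other 4 strains were close to each other. DBA/2J had 105 to 131 CPM on CD, with a median of 118 and a mean of 118 ± 8.38 (SD, n = 6). For 129S1/SvImJ on CD the range was 116 to 144 CPM, the median 127 and the mean 127 ± 9.19 (SD, n = 7). These groups overlapped over most of their ranges. PWK/PhJ had 128 to 151 CPM on CD, with a median of 138 and a mean of 139 ± 8.44 (SD, n = 6). WSB/EiJ was the highest of the 4 on CD, at 130 to 154 CPM, with a median of 144 and a mean of 144 ± 9.14 (SD, n = 6). The plot of every mouse shows the 3 levels, with C57BL/6J and CAST/EiJ at the bottom, A/J at the top and 4 strains between.

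**Figure D1:**
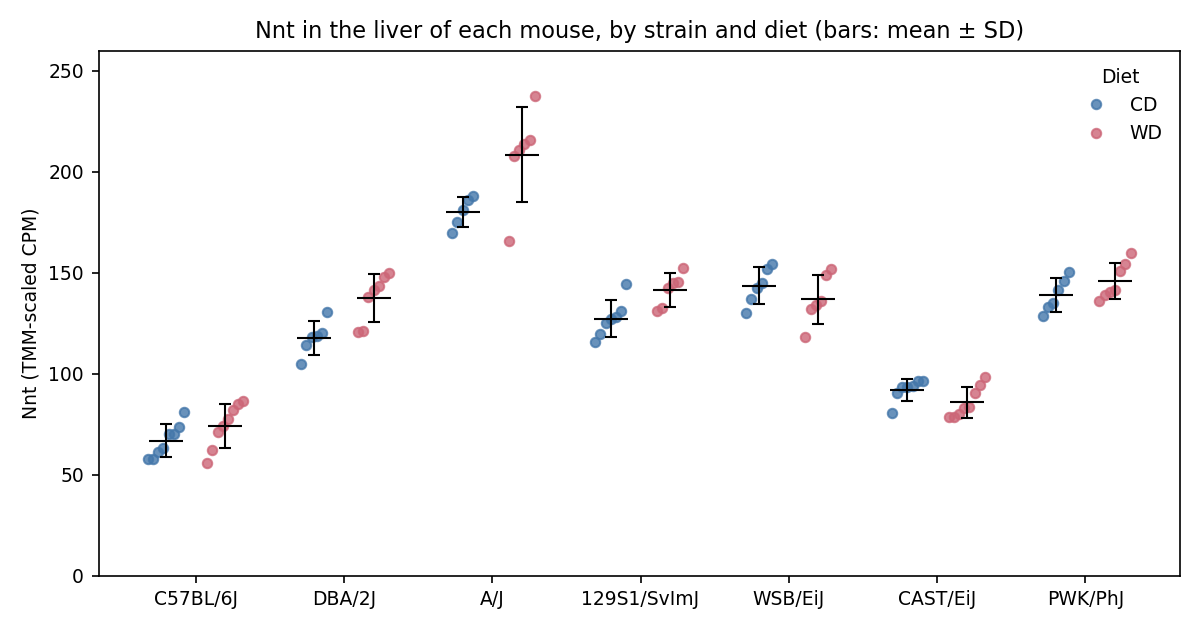
Nnt in TMM-scaled CPM (vertical axis, from 0) for each of the 93 mice, by strain (horizontal axis) and diet (blue CD, red WD). Black bars are the group mean ± SD. The A/J mice, from 166 to 237, lie above all other mice, and the C57BL/6J mice, from 55.9 to 86.4, overlap only with CAST/EiJ.

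Of the sum of squares of log2 CPM of Nnt over the 93 mice, the strain accounted for 91.4%, the diet for 0.784%, their interaction for 1.55% and the spread between mice of a group for 6.25%. Nnt thus differed mainly by strain in these livers.

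Each strain was compared with C57BL/6J in a limma-voom fit over all 14 groups, with Benjamini-Hochberg adjustment over 19110 genes. A gene was called when its adjusted p was below 0.05. Nnt was looked at because C57BL/6J carries the deletion and its low level was already known, so these p-values are not independent support for that level. On CD, A/J exceeded C57BL/6J by a log2 difference of 1.44 (SE 0.0750, adjusted p = 7.82e-30), or 2.71-fold. Of all genes, 38.4% were called in that comparison, and 9.22% of all genes differed by more than Nnt. The log2 difference on CD was 1.11 for WSB/EiJ, where 53.8% of genes were called, and 1.06 for PWK/PhJ, where 58.0% were. For 129S1/SvImJ it was 0.93, with 48.9% of genes called, and for DBA/2J 0.82, with 39.7%. CAST/EiJ differed least, by 0.47 (SE 0.0668, limma-voom adjusted p = 3.08e-09), in a comparison that called 65.9% of genes.

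On WD all 6 strains were again called higher than C57BL/6J. The log2 difference was 1.49 for A/J (SE 0.0714, limma-voom adjusted p = 1.96e-32; 44.4% of genes called). It was 0.99 for PWK/PhJ, 0.94 for 129S1/SvImJ, 0.90 for DBA/2J and 0.89 for WSB/EiJ, against 56.8%, 37.9%, 47.2% and 53.7% of genes called. CAST/EiJ was higher by 0.22 (SE 0.0646, limma-voom adjusted p = 0.00201; 67.3% of genes called), and 3 of its 8 mice were above all 8 C57BL/6J mice. That call was lost when the cohort of the mice entered the fit as a further term (0.14, limma-voom adjusted p = 0.0881) and with library size as the sole scaling (0.11, adjusted p = 0.213). Cohort is a number in the labels, and 3 CAST/EiJ and 5 C57BL/6J mice on WD shared cohort 1, where the difference was -0.03.

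Cohorts were not spread evenly over strains. PWK/PhJ shared both its cohorts with C57BL/6J, and its log2 difference from C57BL/6J on CD was 1.06 within cohort 1 and 1.08 within cohort 2. On WD it was 0.78 and 1.26. A/J shared cohort 2, within which it was above C57BL/6J by 1.38 on CD and 1.70 on WD. DBA/2J, 129S1/SvImJ and WSB/EiJ shared no cohort with C57BL/6J, and WSB/EiJ shared none with any strain, so that strain and cohort cannot be told apart for WSB/EiJ.

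Neighbours in the order of levels did not all differ. On CD the order from low to high was C57BL/6J, CAST/EiJ, DBA/2J, 129S1/SvImJ, PWK/PhJ, WSB/EiJ and A/J. The difference between 129S1/SvImJ and DBA/2J was 0.11 (limma-voom adjusted p = 0.242, 95% interval -0.03 to 0.26; 35.4% of genes called). PWK/PhJ and 129S1/SvImJ differed by 0.13 (limma-voom adjusted p = 0.133, interval -0.02 to 0.28; 52.4% of genes called), and PWK/PhJ and WSB/EiJ by -0.04 (adjusted p = 0.642, interval -0.20 to 0.11; 56.4% of genes called). Strains further apart in the order were called on CD. WSB/EiJ was above DBA/2J by 0.29 (limma-voom adjusted p = 0.00124; 41.7% of genes called), PWK/PhJ above DBA/2J by 0.24 (adjusted p = 0.00502; 54.5%) and WSB/EiJ above 129S1/SvImJ by 0.17 (adjusted p = 0.0487; 39.8%). With library size as the sole scaling both WSB/EiJ calls were lost (0.10 and -0.04). The one against 129S1/SvImJ was also lost with upper-quartile scaling, under both other filters and in 10 of 13 omissions of 1 mouse (0.15 to 0.20). The steps from CAST/EiJ to DBA/2J and from WSB/EiJ to A/J passed the test, with adjusted p of 1.71e-05 and 0.000539 in limma-voom (58.8% and 38.9% of genes called). On WD no pair among DBA/2J, 129S1/SvImJ, WSB/EiJ and PWK/PhJ was called, with adjusted p of 0.256 to 0.955. In the 6 comparisons between these strains on WD, 32.0%, 43.7%, 58.6%, 42.9%, 54.9% and 60.8% of genes were called. With library size as the sole scaling, 3 of the 6 pairs were called, among them PWK/PhJ and WSB/EiJ at 0.40 (limma-voom adjusted p = 2.24e-05).

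In the limma-voom fit with TMM scaling, the log2 diet differences of Nnt ran from -0.10 to 0.22, and the call was made in 1 of 7 strains. In DBA/2J, Nnt rose from the 105 to 131 CPM of the CD mice to 120 to 150 CPM on WD, with a median of 142 and a mean of 137 ± 12.0 (SD, n = 7). The groups overlapped, with 5 of 7 WD mice above all 6 CD mice. The log2 difference was 0.22 (SE 0.0730, 95% interval 0.08 to 0.37, limma-voom adjusted p = 0.0231), or 1.17-fold. In DBA/2J 18.0% of genes were called, and 45.6% of genes differed by more than Nnt. The difference was 0.19 within cohort 4 and 0.24 within cohort 5. The call was lost without 1 CD mouse (replicate 5, adjusted p = 0.0766 in limma-voom) or 1 WD mouse (replicate 4, adjusted p = 0.0558).

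In A/J, 129S1/SvImJ and C57BL/6J the differences had the same direction and did not pass in that fit. In A/J the log2 difference was 0.20 (SE 0.0810, limma-voom adjusted p = 0.100; 9.03% of genes called), and 5 of 6 WD mice were above all 5 CD mice while the sixth, at 166 CPM, was below all of them. Without that mouse the difference was 0.27 (limma-voom adjusted p = 0.0275). Within cohorts 2 and 3 of A/J it was 0.22 in both. It was called with library size as the sole scaling (0.33, limma-voom adjusted p = 0.00804), with quality weights (0.23) and with DESeq2 (0.22). In 129S1/SvImJ, WD mice had 131 to 153 CPM, with a median of 144 and a mean of 141 ± 8.28 (SD, n = 6), and the difference was 0.15 (SE 0.0733, limma-voom adjusted p = 0.112; 28.0% of genes called). It was called with library size as the sole scaling (0.23, limma-voom adjusted p = 0.0360), with upper-quartile scaling (0.21), with quality weights (0.16) and in a fit of this strain alone (0.17). The exact permutation test, adjusted over the 7 strains and not over all genes, gave 0.15 (permutation adjusted p = 0.049).

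C57BL/6J had a log2 difference of 0.15 (SE 0.0646, limma-voom adjusted p = 0.0872; 26.2% of genes called), and its cohorts differed in direction. In cohort 1 the 5 WD mice had 74.1 to 86.4 CPM and the 3 CD mice 58.0 to 73.8, with no overlap and a difference of 0.32. In cohort 2 the 3 WD mice had 55.9 to 71.2 CPM and the 5 CD mice 58.0 to 80.9, with a difference of -0.11. The call appeared when any 1 of 4 mice was left out (CD replicates 2 and 6 and WD replicates 7 and 8), with the log2 difference running from 0.11 to 0.20 over the 16 omissions.

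In the wild-derived strains Nnt was not called with TMM scaling. WSB/EiJ on WD had 118 to 152 CPM, with a median of 135 and a mean of 137 ± 12.1 (SD, n = 6), a log2 difference of -0.07 (limma-voom adjusted p = 0.661; 8.94% of genes called). For CAST/EiJ the difference was -0.10 (SE 0.0668, interval -0.24 to 0.03, limma-voom adjusted p = 0.304; 19.5% of genes called). PWK/PhJ on WD had 136 to 160 CPM, with a median of 142 and a mean of 146 ± 9.02 (SD, n = 7), a difference of 0.07 (limma-voom adjusted p = 0.517; 29.6% of genes called). With library size as the sole scaling the WSB/EiJ and CAST/EiJ differences became 0.01 and 0.02, and that of PWK/PhJ became 0.24 and was called (limma-voom adjusted p = 0.0208). The median of all genes was then 0.0850, 0.142 and 0.158 in WSB/EiJ, CAST/EiJ and PWK/PhJ.

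**Figure D2:**
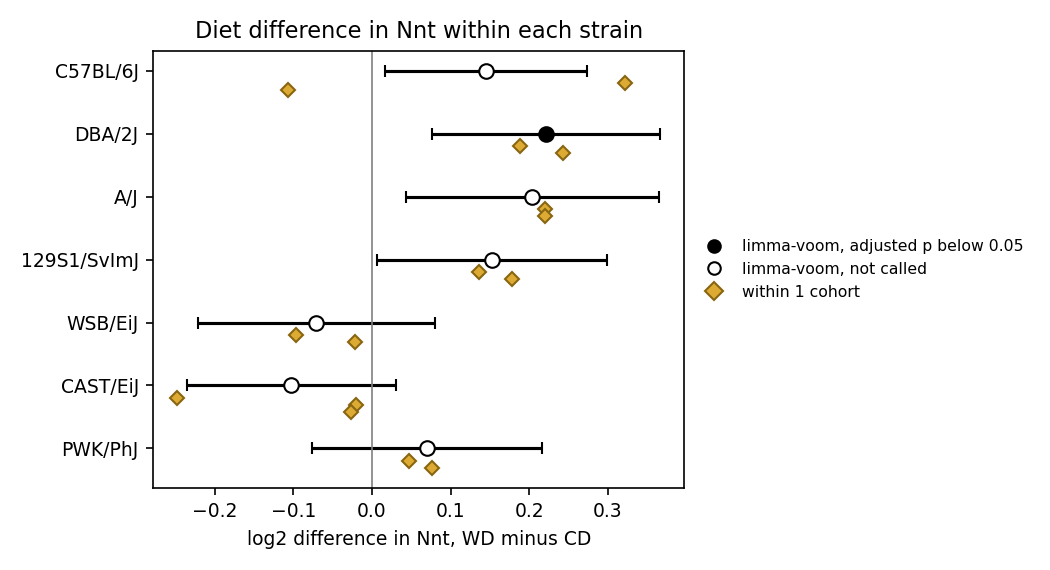
Log2 difference in Nnt between WD and CD (horizontal axis) in each strain (vertical axis). Circles with bars are limma-voom estimates with 95% intervals, filled where the adjusted p was below 0.05 (DBA/2J, 0.22), and diamonds are the differences within each cohort, which lie on both sides of 0 in C57BL/6J (-0.11 and 0.32).

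The same model was used to ask whether the diet difference of Nnt was equal in all strains. An F test of equal diet differences in the 7 strains gave F = 3.30 (limma-voom adjusted p = 0.0208), where 37.5% of all genes were called. In CAST/EiJ the diet difference was lower than the mean of the other 6 strains by a log2 value of -0.22 (SE 0.0732, interval -0.37 to -0.08, limma-voom adjusted p = 0.0274; 14.5% of genes called). WSB/EiJ differed from the other 6 by -0.19 (adjusted p = 0.335 in limma-voom; 0.947% of genes called) and DBA/2J by 0.16 (adjusted p = 0.237; 7.77% called). Within cohort 1 of CAST/EiJ, which held 1 CD mouse, the diet difference was -0.25, and it was -0.02 and -0.03 within cohorts 3 and 4. With cohort within strain in the fit, the CAST/EiJ value was -0.19 (limma-voom adjusted p = 0.0802). This call was also lost without any 1 of 5 CAST/EiJ mice (CD replicates 3, 6 and 7 and WD replicates 2 and 3), with values from -0.25 to -0.21 over 15 omissions. It and the F test lost their calls with library size as the sole scaling (F test adjusted p = 0.141 in limma-voom) and when genes of any count were kept (adjusted p = 0.0677).

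In whole liver, fewer cells of a type and less RNA per cell cannot be told apart. In DBA/2J, where Nnt rose, the summed level of the 7 hepatocyte markers was 118408 CPM on CD (105666 to 128136) and 106349 CPM on WD (91156 to 122652). The 7 leukocyte markers summed to 82.5 to 98.9 CPM on CD and 65.3 to 109 on WD, and the 4 Kupffer cell markers to 186 to 329 and 174 to 302. The 4 mesenchymal markers summed to 262 to 345 CPM on CD and 219 to 308 on WD, the 4 cholangiocyte markers to 12.8 to 20.4 and 7.41 to 14.4, and the 4 endothelial markers to 181 to 233 and 153 to 208. No marker was at 0 in all mice of a group. The sums of all 6 lists had lower means on WD in DBA/2J, and their part in the Nnt difference was not tested. Within groups, over the 93 mice, the correlation of log2 CPM of Nnt with RIN was -0.09, with depth 0.05 and with the unmapped share -0.21. The correlation with the hepatocyte sum was 0.18, with the Kupffer cell sum -0.27 and with the mesenchymal sum 0.31.

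Compared per length, Nnt changed its place among the mitochondrial sources of NADPH with strain and diet. Levels in this paragraph are RPKM, in which reads are scaled by library size and by transcript length, so that genes can be compared. In C57BL/6J on CD, Nnt had 19.3 ± 2.36 RPKM and Idh2 52.7 ± 12.4 (SD, n = 8). In A/J on CD, Nnt had 52.0 ± 2.19 RPKM and Idh2 42.3 ± 3.34 (SD, n = 5). On CD, Nnt was thus below Idh2 in C57BL/6J and above it in A/J. On WD it was below Idh2 in both, with 60.2 ± 6.79 RPKM in A/J against 79.7 ± 13.8 for Idh2 (SD, n = 6). Nadk2, the mitochondrial kinase that makes NADP, had 40.1 RPKM in C57BL/6J and 47.2 in A/J on CD. Glud1 was the most abundant of the list, at 265 and 339 RPKM. The mitochondrial malic enzyme Me3 and the folate enzymes Mthfd2, Mthfd2l and Aldh1l2 had group means below 2 RPKM in all 14 groups. Of 19091 genes with a length, 13.1% were above Nnt in C57BL/6J on CD and 5.56% in A/J on CD.

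**Figure D3:**
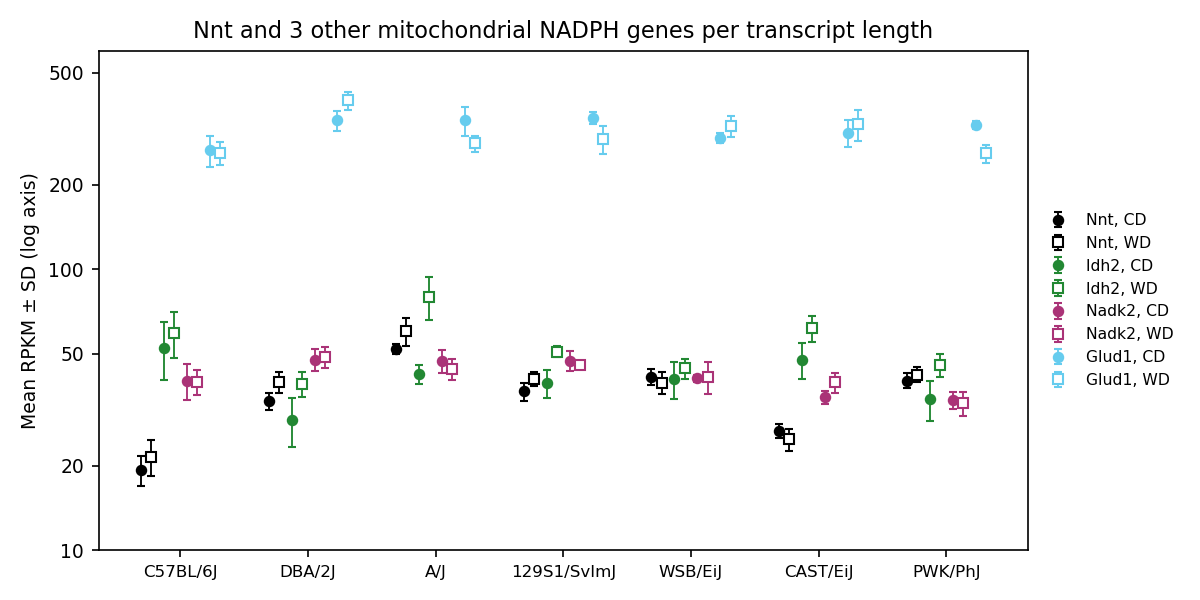
Group mean ± SD of RPKM (vertical log axis) for Nnt, Idh2, Nadk2 and Glud1 in each strain (horizontal axis), with filled circles for CD and open squares for WD. Nnt is lowest of the 4 in C57BL/6J (19.3 on CD), CAST/EiJ and 129S1/SvImJ on both diets, and in WSB/EiJ on WD. In A/J on CD (52.0) Nnt lies above Idh2 (42.3) and Nadk2 (47.2).

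Idh2 rose on WD in 5 strains, including strains in which Nnt was not called. In DBA/2J its mean was 50.7 ± 10.0 CPM on CD (SD, n = 6) and 68.2 ± 6.81 on WD (SD, n = 7), with a log2 difference of 0.44 (limma-voom adjusted p = 0.00269). In A/J its mean was 73.9 ± 5.83 CPM on CD (SD, n = 5) and 139 ± 24.1 on WD (SD, n = 6), with a difference of 0.90 (limma-voom adjusted p = 2.81e-07), beside 0.20 for Nnt. In CAST/EiJ, where the Nnt difference was -0.10, Idh2 rose by 0.38 (limma-voom adjusted p = 0.00603). In 129S1/SvImJ it rose by 0.38 and in PWK/PhJ by 0.42. Glud1 rose in DBA/2J by 0.24 (limma-voom adjusted p = 0.0169) and fell by 0.27 in A/J, by 0.26 in 129S1/SvImJ and by 0.34 in PWK/PhJ.

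The wider surroundings of Nnt in metabolism were described with 6 lists of 56 genes, all of which were tested. They cover mitochondrial and other NADPH sources, peroxide and thiol defence, NAD synthesis and transport, mitochondrial sirtuins and genes of mitochondrial content. In DBA/2J on WD, 12 of the 56 rose and 5 fell, while 10.2% of all genes rose and 7.77% fell, and the median log2 difference of the 56 was 0.04. The counts of risen and fallen genes were 10 and 9 in C57BL/6J (14.3% and 11.9% of all genes), 7 and 3 in A/J (4.39% and 4.64%), 5 and 12 in 129S1/SvImJ (14.5% and 13.6%) and 3 and 3 in WSB/EiJ (4.97% and 3.97%). They were 13 and 7 in CAST/EiJ (9.77% and 9.73%) and 7 and 20 in PWK/PhJ (15.1% and 14.5%). The lists moved in both directions in every strain.

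In DBA/2J 10.2% of all genes rose and 7.77% fell. The peroxide and thiol defence list held 5 of 11 risen genes there and none that fell. Gpx1, the main cytosolic and mitochondrial glutathione peroxidase, rose by 0.42 on the log2 scale, with 890 ± 82.2 CPM on CD (SD, n = 6) and 1186 ± 59.3 on WD (SD, n = 7; limma-voom adjusted p = 9.12e-07). Glrx5, a mitochondrial glutaredoxin of iron-sulfur cluster assembly, rose by 0.37. Of the 8 other NADPH sources, 2 fell, G6pdx, the first enzyme of the pentose phosphate pathway, by 0.77 and H6pd, its counterpart in the endoplasmic reticulum, by 0.47. Of the 15 NAD genes 2 rose and 3 fell, and the lists were not tested as sets. Nnmt, which methylates nicotinamide, rose by 1.87 and Nmnat3, the mitochondrial enzyme that forms NAD, by 0.49. Sirt5, a mitochondrial deacylase, rose by 0.39 among 3 sirtuins. Of 12 genes of mitochondrial content 2 rose, the cristae protein Immt by 0.28 and the prohibitin Phb by 0.23. In C57BL/6J 5 of the 11 peroxide and thiol defence genes rose and 1 fell, and in CAST/EiJ 4 rose and 0 fell. Nnt was not called in either strain with TMM scaling, at 0.15 and -0.10. The counts were 2 and 0 in A/J and WSB/EiJ, 2 and 2 in 129S1/SvImJ and 2 and 5 in PWK/PhJ. The shares of all genes in these strains are given above.

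Against C57BL/6J on CD, the counts of higher and lower genes among the 56 were 18 and 15 in A/J (20.1% and 18.3% of all genes) and 23 and 21 in CAST/EiJ (32.6% and 33.3%). They were 13 and 14 in DBA/2J (20.4% and 19.3%), 28 and 10 in 129S1/SvImJ (24.5% and 24.4%), 26 and 13 in WSB/EiJ (27.1% and 26.7%) and 20 and 15 in PWK/PhJ (29.4% and 28.6%). These 6 comparisons share the C57BL/6J mice. Idh2 went against Nnt, and was called lower than in C57BL/6J in 5 strains, by 0.28 in A/J to 0.85 in DBA/2J on the log2 scale. The CAST/EiJ difference of Idh2 was -0.12 (limma-voom adjusted p = 0.304). Glud1, of the same list, was lowest in C57BL/6J on CD, as Nnt was. It had 265 RPKM there and from 294 (WSB/EiJ) to 346 (129S1/SvImJ) in the other strains. Among those strains its order was not that of Nnt, and in WSB/EiJ it was not called higher. Of the 7 mitochondrial NADPH sources, 0 (WSB/EiJ) to 2 were called higher in a strain and 2 (DBA/2J) to 4 lower. Sirt5 was higher in WSB/EiJ by 1.74 and Glrx5 higher in PWK/PhJ by 1.25. Nnmt had the largest difference of the NAD list, with -4.71 in A/J, where its mean was 0.722 CPM against 23.7 ± 24.6 CPM (SD, n = 8) in C57BL/6J. Me1, the cytosolic malic enzyme, was lower in CAST/EiJ by a log2 value of -2.16.

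The genes whose pattern was most like that of Nnt were found by Pearson's r over the 14 group means of log2 CPM, among 11148 genes. The groups share strains, and 7 strains set most of each r. The highest were Ugt1a9, a glucuronosyltransferase (r = 0.91), Cdc23, a subunit of the anaphase-promoting complex (0.90), 9430015G10Rik (0.90), Cbr4, a mitochondrial carbonyl reductase (0.89), and Shpk, sedoheptulokinase (0.88). By Spearman's rho, 3 of these 5 were again among the top 5. Ugt1a9 had 22.7 ± 9.39 CPM in C57BL/6J on CD, 27.4 ± 5.02 in CAST/EiJ on CD and 188 ± 8.76 in A/J on CD (SD, n = 8, 7 and 5). It shares its last exons with the other genes of the Ugt1a cluster, so its counts are uncertain. The lowest r were those of Tdg, a thymine DNA glycosylase (-0.95), Sall2, a zinc finger factor (-0.91), and Gas5, a noncoding RNA that hosts small nucleolar RNAs (-0.90). Tdg had 12.7 ± 1.10 CPM in C57BL/6J and 4.16 ± 0.545 CPM in A/J on CD.

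Within groups, over the 93 mice with each group mean subtracted, the highest r with Nnt was again that of Ugt1a9, at 0.75. It was followed by Hsd17b13, a lipid droplet protein of hepatocytes (0.71), Cyp2a22, a cytochrome P450 (0.67), Idh2 (0.65) and Spc25, a kinetochore protein (0.63). Subtracting the group mean leaves differences between cohorts in place. With the mean of each group and cohort subtracted, which leaves out 1 mouse that was alone, the r over 92 mice was 0.74 for Ugt1a9, 0.66 for Hsd17b13, 0.60 for Cyp2a22, 0.63 for Idh2 and 0.60 for Spc25. Pooled over these mice, more Nnt thus went with more Idh2 also within cohorts, although the 2 genes were ordered differently over strains. The r was not computed for single groups, so it does not show that each group followed this. For both genes the mouse farthest from its group mean was from C57BL/6J (Nnt -0.40, Idh2 0.59). These genes were also picked for their high r in these same mice.

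**Figure D4:**
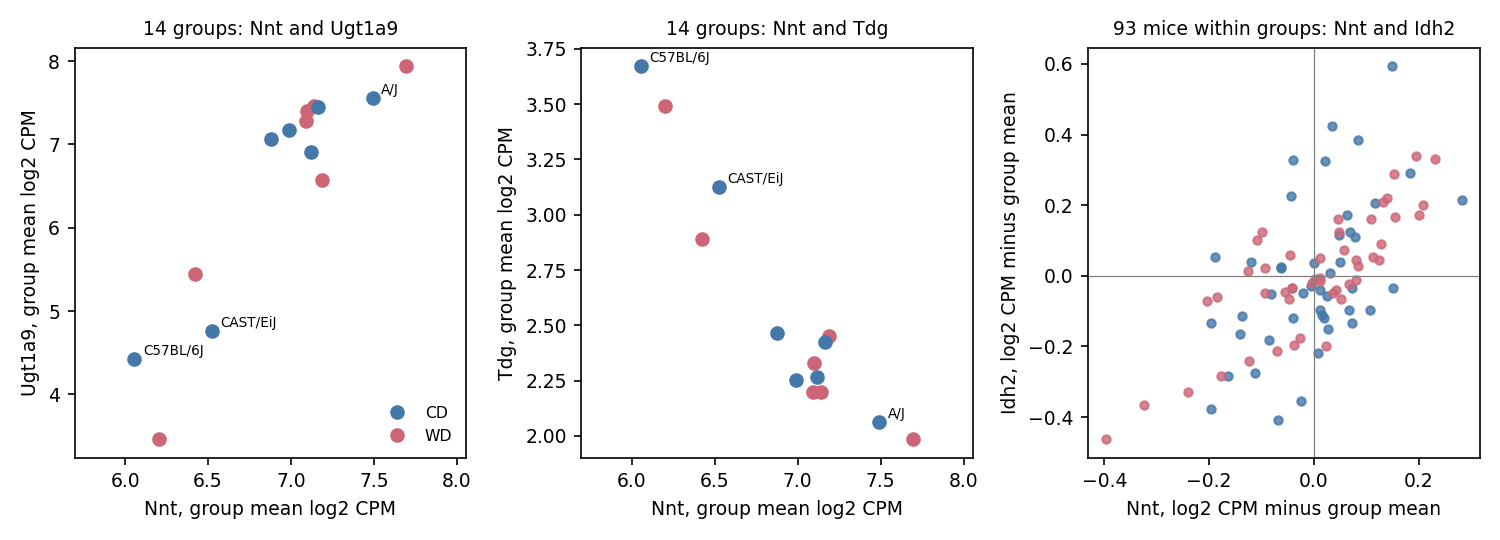
Left and middle, group means of log2 CPM of Ugt1a9 and Tdg (vertical axes) against Nnt (horizontal axes) in the 14 groups (blue CD, red WD; the CD groups of 3 strains are named), with r = 0.91 and -0.95. Right, Idh2 against Nnt in 93 mice as log2 CPM minus the group mean (r = 0.65).

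Of 23 annotated genes within 500 kb of Nnt with a row in the table, 10 had enough reads to be tested. Paip1, which binds the poly(A)-binding protein, starts 19.6 kb from the start of Nnt on the other strand. On CD it was lower than in C57BL/6J in DBA/2J by 0.35 (limma-voom adjusted p = 7.77e-06; 39.7% of genes called), in A/J by 0.20 and in 129S1/SvImJ by 0.44. It was higher in CAST/EiJ by 0.17, and the differences of WSB/EiJ (-0.14) and PWK/PhJ (-0.08) were not called. Of the 10 genes, between 0 and 2 were called higher than in C57BL/6J on CD in a strain, and between 2 (A/J) and 8 (DBA/2J and 129S1/SvImJ) were called lower. In either direction, 3 of the 10 were called in A/J and 5 each in PWK/PhJ and WSB/EiJ, close to or below the 38.4%, 58.0% and 53.8% of all genes called there. The count was 8 in DBA/2J and in CAST/EiJ and 9 in 129S1/SvImJ, where 39.7%, 65.9% and 48.9% of all genes were called. Hmgcs1, the cytosolic HMG-CoA synthase of cholesterol synthesis, starts 281.4 kb away and was lower on WD in 6 strains, by 0.75 in 129S1/SvImJ to 2.10 in C57BL/6J on the log2 scale, with -0.60 in DBA/2J (limma-voom adjusted p = 0.104). Tmem267 and 3110070M22Rik overlap each other, as do 4833420G17Rik and Gm9752, and Gm41077 and Zfp131, and without a stated strand setting their reads cannot be told apart.

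**Figure D5:**
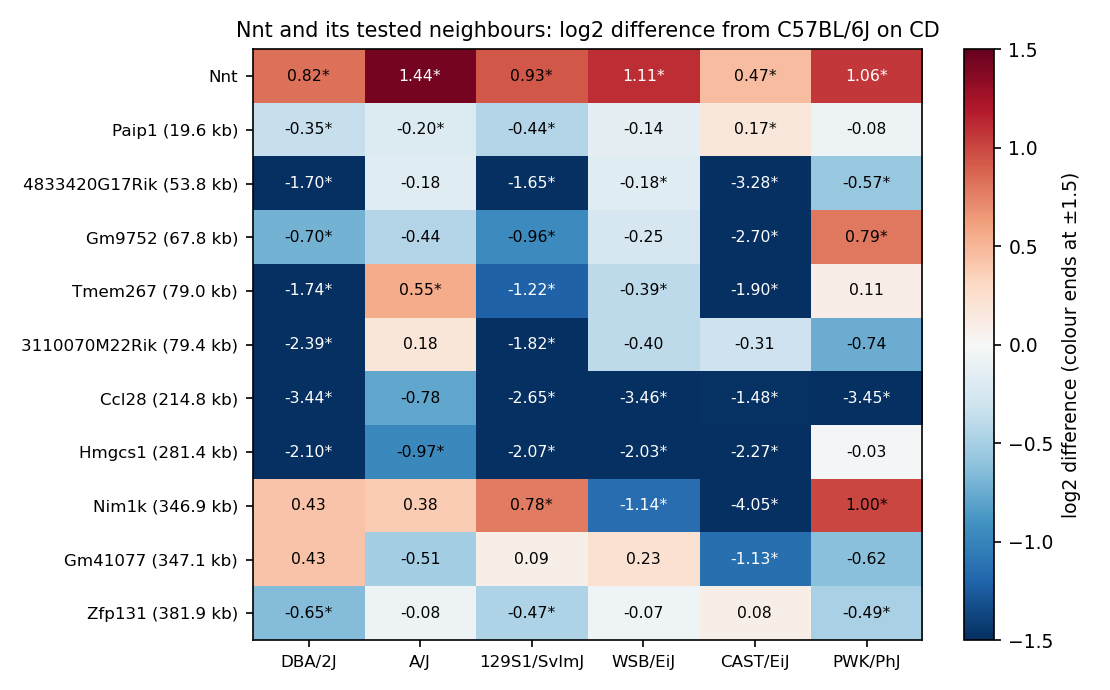
Log2 difference from C57BL/6J on CD (colour and number; an asterisk marks an adjusted p below 0.05 in limma-voom) for Nnt and the 10 tested genes within 500 kb (rows, with the distance between starts) in 6 strains (columns). The Nnt row is above 0 in all 6 strains (0.47 to 1.44), and Paip1 beside it runs from -0.44 to 0.17.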

How the data were processed

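The authors mapped reads to the C57BL/6J genome with STAR (version 2.7.1a in the submitters' processing notes) and deposited raw counts of reads per gene in each mouse, with 4 summary lines that were left out of library sizes. The annotation release and the strand setting are not given in the sources used here. Symbols came from GENCODE vM21 for 53360 of 53465 rows. The software was edgeR 4.0.16 and limma 3.58.1, run under R 4.3.3. After filterByExpr at a minimum count of 10, 19110 genes were scaled by TMM, and voom was fitted with 14 group means. Fold changes carry no shrinkage, and log2 CPM used a prior count of 2. Benjamini-Hochberg adjustment was over all genes within each comparison. The exact permutation tests were run on Nnt alone. Their adjustment was over the 7 strains for diet and over the 12 contrasts against C57BL/6J, which is less strict. RPKM used the transcript with the longest coding sequence. The scripts were tested on simulated data. The labels give no replicate numbers, so mice were numbered in accession order.

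The gene and the lists were chosen with earlier results of these data known. Named genes were, per list, the 2 called members with the largest change in DBA/2J on WD and against C57BL/6J on CD, Idh2 and Glud1 followed over strains, the genes most and least like Nnt among those whose log2 CPM averaged at least 1, and its tested neighbours. Alternatives were edgeR's quasi-likelihood test, DESeq2 1.42.0, other scalings and filters, RIN or cohort as covariates, quality weights, separate fits, exact permutation tests, and the omission of each mouse. The correlations within groups were repeated within groups and cohorts, an alternative chosen after seeing the data.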

Additional observations from a re-analysis of the deposited data

Results flagged for a closer look

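In CAST/EiJ on CD, 1 mouse (replicate 2) had 80.6 CPM of Nnt, while the next lowest had 90.4 and the highest 96.5. The gap to the next mouse was 0.614 of the range of the group, above Dixon's 95% critical value for 7 mice. It was the sole such mouse in the 14 groups, and about 1 group in 20 would be picked out by chance. Its RIN was 9, it belonged to cohort 3, and without it the group mean was 94.0 CPM in place of 92.1.

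The diet difference of Nnt was unequal over the 7 strains by the F test (limma-voom adjusted p = 0.0208), and in CAST/EiJ it was lower than the mean of the other 6 strains by a log2 value of -0.22 (limma-voom adjusted p = 0.0274). With cohort within strain in the fit the CAST/EiJ call was lost (-0.19, adjusted p = 0.0802 in limma-voom). The calls of CAST/EiJ and of the F test were both lost with library size as the sole scaling (adjusted p = 0.147 and 0.141) and with genes of any count (adjusted p = 0.0920 and 0.0677), and that of CAST/EiJ also without any 1 of 5 of its mice.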

How the results depend on the processing

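All 12 differences of Nnt from C57BL/6J remained above 0 and called under the alternatives with a test and in each omission of 1 mouse, except CAST/EiJ on WD with library size alone (0.11) and with cohort as an additive term (0.14). For the other 5 strains they ran from 0.65 to 1.50 over 98 values. Within a cohort, the WD values that moved by more than the spread between mice were 1.70 for A/J, 0.78 and 1.26 for PWK/PhJ and, with a changed sign, -0.032 for CAST/EiJ. The additive cohort term could not be fitted for WSB/EiJ, which shares no cohort. The diet difference of DBA/2J was called under every alternative with a test (0.19 to 0.24, cohort values included). Over the omission of each mouse it ran from 0.19 to 0.25, and the call was lost in 2 of 13 omissions. In A/J it was called with DESeq2 (0.22), library size alone (0.33) and quality weights (0.23), with omissions from 0.17 to 0.27. In 129S1/SvImJ it was called with upper-quartile scaling (0.21), library size alone (0.23), quality weights (0.16) and a separate fit (0.17). It also passed the exact permutation test (0.15), which was adjusted over the 7 strains only. In C57BL/6J it was called with quality weights (0.19), was 0.32 and -0.11 within its cohorts, and ran from 0.11 to 0.20 over omissions. Library size alone gave 0.24 in PWK/PhJ, called, and turned the sign in WSB/EiJ (0.0080) and CAST/EiJ (0.022), whose cohort 1 value was -0.25. The difference of CAST/EiJ from the other 6 strains lost its call with library size alone (-0.18), genes of any count (-0.22) and cohort within strain (-0.19), and in 5 omissions (-0.25 to -0.21). That of PWK/PhJ turned with library size alone (0.072) and in 1 omission (-0.044 to 0.0016). The F test lost its call with library size alone (adjusted p = 0.141) and genes of any count (adjusted p = 0.0677). With library size alone WSB/EiJ minus 129S1/SvImJ on CD was -0.043 and PWK/PhJ minus WSB/EiJ 0.17, and WSB/EiJ minus DBA/2J on WD was 0.021 with quality weights and -0.038 to 0.034 over omissions. Library size alone shifted the median of all genes by up to 0.158 between diets, and genes of any count enlarged the set tested; other causes were not tested. No paired analysis was possible because the labels give no replicate numbers, and the numbers used here only name mice.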
